A study of Mus musculus with 9 samples.

Results

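The genes of the cytosolic ribosome were read from RNA sequencing of the gastrocnemius, the main calf muscle, of wild-type FVB mice. They were chosen by name: every protein-coding gene whose symbol is Rpl or Rps, then digits and at most 1 further letter, with Rplp0, Rplp1, Rplp2 and Rpsa. This gave 80 of the 55401 genes in the tables, 49 of the large (60S) and 31 of the small (40S) subunit. A further 3 symbols fit the pattern but belong to pseudogenes (Rpl32l, Rpl6l and Rps4l) and were left out. The rule itself uses names only and no measured value, but the gene set was proposed with earlier results of these data known.

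Mice were 2 to 3 months old. One group received saline in the muscle. Another received AAV-GFP, an adeno-associated virus vector for green fluorescent protein, and the last AAV-GFP-MBNL1∆, which adds a form of MBNL1 marked ∆. The splicing regulator MBNL1 binds RNA and, in myotonic dystrophy, is trapped by expanded CUG repeats, and the series title calls the protein under study a decoy for such repeats. Muscles were taken 7 weeks later, with 3 libraries per group. These mice carry no disease repeat, so the design asks what the vectors are accompanied by in normal muscle. The promoter of the vectors and the sex of the mice are not given in the labels.

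A ribosome holds 1 copy of most of its proteins around the ribosomal RNA, and cells keep the proteins in step. Many of their mRNAs begin with a stretch of C and T bases, the terminal oligopyrimidine (TOP) motif, through which the growth kinase mTORC1 controls their translation, mostly without changing mRNA levels. Several members have a paralog used in particular tissues. Rpl3l replaces Rpl3 near the catalytic centre of the ribosome in adult skeletal muscle and heart, Rpl10l and Rpl39l belong to male germ cells, and Rps27l is a copy of Rps27 known as a target of p53. Compact genes with many processed pseudogenes, ribosomal protein genes are also among the hardest to count from short reads.

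The libraries held 44603618 to 76970849 counts in genes. The fibre genes Acta1, Ckm and Myh4 were abundant in all 9, at 16856 CPM (counts scaled to library size) or more, 9353 or more and 26053 or more. Mbnl1 was at 356 to 711 CPM, and its counts do not separate vector from mouse transcripts. In AAV-GFP-MBNL1∆ the female-specific Xist was at 0.0182 to 0.0902 CPM and the Y-linked Ddx3y at 82.7 to 84.6, against 105 to 136 and 0.409 to 2.58 in the other 6 libraries. Sex and the MBNL1∆ vector therefore cannot be told apart in any comparison with that group. The AAV-GFP libraries differed most among themselves. The summed level of 16 monocyte and macrophage genes was 721, 3237 and 335 CPM in AAV-GFP 1, 2 and 3, against 135 to 171 in saline and 258 to 401 in AAV-GFP-MBNL1∆.

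How reads were assigned sets which ribosomal protein genes can be seen at all. Of 434 protein-coding genes that lie wholly inside another gene on the same strand, 432 (99.5%) had 0 counts in all libraries. The share with 0 counts was 22.4% of 755 genes inside another gene on the opposite strand only, and 16.3% of 20708 inside none. Rpl13 lies inside Gm20388, a long predicted gene in which 36 of 36 protein-coding genes on the same strand were at 0 and 0 of 35 on the opposite strand. This is the pattern of stranded counting over whole gene spans, in which a read shared by overlapping genes goes to neither; the setting itself is not stated in the labels. Rpl24 (98.7% of its span shared on its own strand) was likewise at 0, and Rps10 (76.9% shared) had 8 counts in all, while 37027 counts stood in its 4 annotated pseudogenes. The zeros of Rpl13 and Rpl24 and the low value of Rps10 therefore do not show low expression. Rpl13a (88.6% shared) had 1629 counts in all, and its level is open to the same limit.

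Members with a larger share of their sequence copied in other genes' transcripts had lower counts at the median. A window of 75 bases was called copied if it also occurs in a transcript of another gene; the true read length is not given in the sources used here. For the 18 tested members with under 20% of windows copied, the median of the mean levels was 125 CPM. It was 21.9 CPM for the 39 members with 20% to under 60% copied and 8.63 CPM for the 18 with 60% or more. Reads that align to several places, 10.49% to 13.26% of reads in a library, are not counted for any gene. A low CPM of a ribosomal protein gene is therefore no measure of its mRNA, and levels are compared here between libraries for the same gene.

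**Figure D1:**
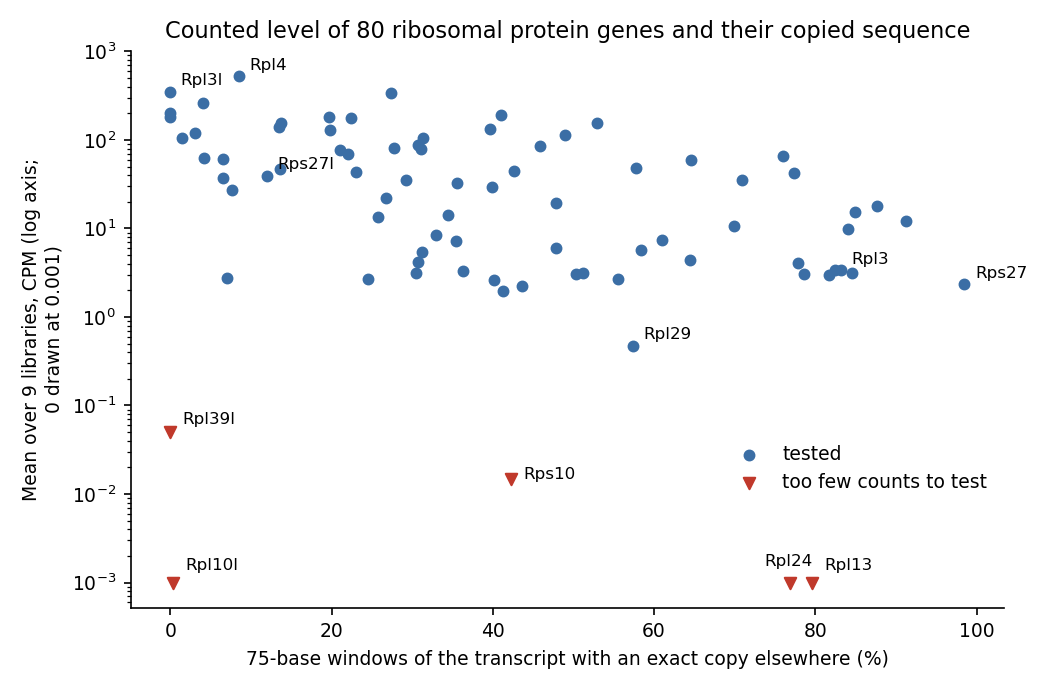
Mean CPM over the 9 libraries (log axis) against the share of 75-base windows copied in another gene's transcript, 1 point for each of the 80 members. Members with too few counts to test have their own marker, and a mean of 0 is drawn at a small fixed value. Rpl3l, with 0% copied, stands at 351 CPM and Rpl3, with 83.2% copied, at 3.41 CPM.

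Promoters are shown for members on which the results turn, to let the C and T stretches be seen. The RefSeq table of GRCm38.p6 matched 60 of the 80 members, with 72 start sites. Each window runs from 60 bases before to 15 bases from the annotated start, 5′ to 3′ on the gene's strand, with the longest run of C and T within 20 bases of the start in capitals. Rpl3l lies at chr17:24727766-24727840 (plus strand) and Rps27l at chr9:66946026-66946100 (plus). Rpl6 lies at chr5:121204441-121204515 (plus), Rpl7a at chr2:26910747-26910821 (plus), Rps15a at chr7:118116133-118116207 (minus), Rps26 at chr10:128626492-128626566 (minus) and Rpl4 at chr9:64173327-64173401 (plus).
Rpl3l: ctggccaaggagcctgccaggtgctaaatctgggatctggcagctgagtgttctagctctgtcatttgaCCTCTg
Rps27l: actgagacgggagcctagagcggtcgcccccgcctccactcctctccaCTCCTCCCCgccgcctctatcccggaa
Rpl6: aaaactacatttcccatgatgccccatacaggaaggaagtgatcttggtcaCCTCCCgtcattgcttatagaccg
Rpl7a: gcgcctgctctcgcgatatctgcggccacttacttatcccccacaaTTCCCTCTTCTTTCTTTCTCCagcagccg
Rps15a: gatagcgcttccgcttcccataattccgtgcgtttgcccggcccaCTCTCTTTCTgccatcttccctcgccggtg
Rps26: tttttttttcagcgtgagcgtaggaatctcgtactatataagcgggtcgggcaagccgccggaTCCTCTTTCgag
Rpl4: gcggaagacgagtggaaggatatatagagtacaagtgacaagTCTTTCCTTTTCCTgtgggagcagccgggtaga

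The run was 21 bases long in Rpl7a, 14 in Rpl4, 10 in Rps15a, 9 in Rps26 and Rps27l, 6 in Rpl6 and 5 in Rpl3l. A run of 8 or more within 20 bases of the start stood in 30 of the 72 member promoters (41.7%), against 16.0% of all 32851 promoters of the table. The letters CCGGAAG, searched on both strands over the whole 300 bases as the core bound by ETS factors, stood in 26 (36.1%) against 8.86%. CANNTG, the E-box of myogenic and other factors, stood in 37 (51.4%) against 72.3%, and TATAAA in 6 (8.33%) against 13.6%. Rpl3l held CANNTG and no CCGGAAG, and Rps27l the reverse. These counts describe letters in a window around annotated starts, not binding, and the annotated start can differ from the one used in muscle.

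AAV-GFP against saline compares the control vector with an injection that carried no vector. No ribosomal protein gene passed the test, and most stood slightly higher: 71 of 75 had a log2 fold change above 0, with a median of 0.17 and a range from −0.36 (Rpl3l) to 0.64 (Rpl3). Among all 18514 genes tested, 48.2% were above 0 and the median was −0.01. Of the members, 0 of 75 had an adjusted p under 0.05, where 0.0% of all genes did, in either direction. At an unadjusted p under 0.05, 9 members were higher (12%, all genes 15.6%) and 0 lower (all genes 6.35%). The 4 members below 0 were Rpl3l, Rpl15, Rpl36a and Rpl23a.

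The size of the difference rested largely on 1 library. Relative to the saline mean, the median member stood 0.02, 0.33 and 0.15 higher on the log2 scale in AAV-GFP 1, 2 and 3, while the saline libraries themselves lay between −0.03 and 0.02. AAV-GFP 2 was the highest of all 9 libraries for 44 of the 75 members. Without it, 56 members stood above 0 (all genes 41.8%) and the median was 0.06 (all genes −0.04). AAV-GFP 2 is also the library with 3237 CPM of macrophage genes (16 genes, 1 of them at 0 counts throughout), 166 CPM of 19 T-cell genes (saline 3.48 to 4.35) and 195 CPM of 13 proliferation genes (saline 19.8 to 20.5), and with the lowest summed level of 20 muscle fibre genes, 120177 CPM against 177374 to 244919 elsewhere. In bulk tissue, more cells of a kind cannot be told from more RNA per cell, and the part of these cell-type markers in the ribosomal values was not tested.

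**Figure D2:**
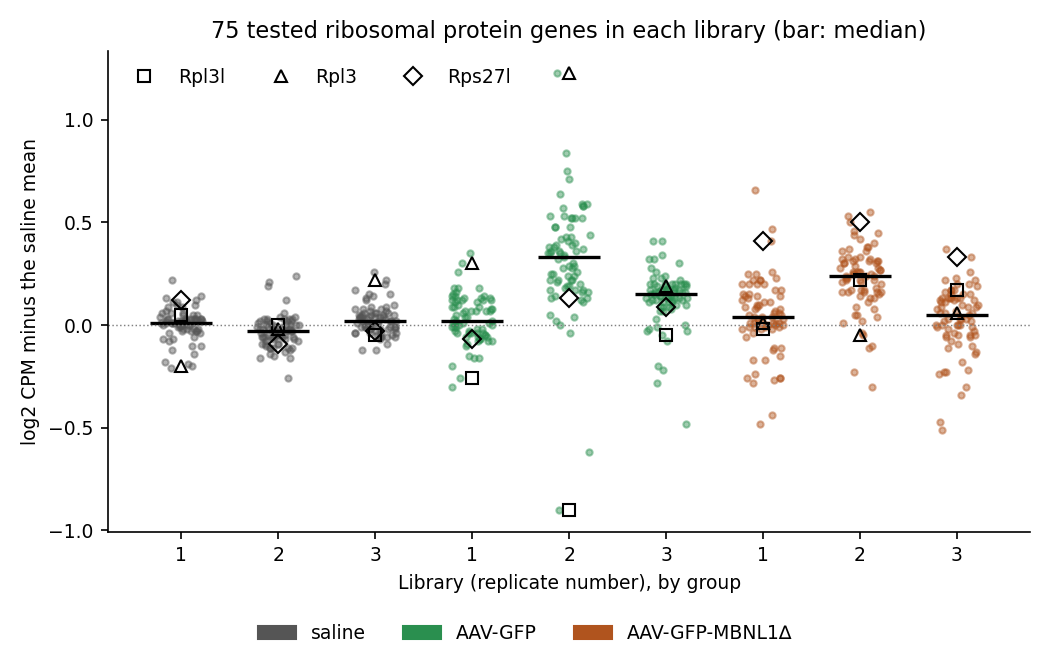
Difference in log2 CPM from the saline mean for each of the 75 tested ribosomal protein genes in each library, with the median as a bar. The medians of AAV-GFP 2 (0.33) and AAV-GFP-MBNL1∆ 2 (0.24) stand highest, and Rpl3l and Rpl3 lie at opposite ends in AAV-GFP 2.

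All 3 AAV-GFP libraries lay above all 3 saline libraries for 27 members (36.0%; all genes 14.7%) and below them for 0 (all genes 12.4%). Rps9, a small-subunit protein at the mRNA entry channel, read 152, 148 and 160 CPM in saline and 173, 228 and 176 in AAV-GFP. The fitted difference was 0.33 on the log2 scale (SE 0.13, adjusted p = 0.194). Rps19, which is needed to mature the 40S subunit and is mutated in Diamond-Blackfan anaemia, read 28.1, 24.4 and 26.7 against 29.5, 36.7 and 29.2 CPM (0.27, SE 0.10, adjusted p = 0.192). In both genes AAV-GFP 2 was the highest and the other 2 AAV-GFP libraries lay between it and the saline range.

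In the other members with the smallest p-values AAV-GFP 2 was likewise the highest AAV-GFP library. Rpl6 read 43.8, 43.0 and 43.3 CPM in saline and 47.3, 51.7 and 47.7 in AAV-GFP (0.17, SE 0.07, adjusted p = 0.199). Rpl17, at the exit of the tunnel for the nascent chain, read 2.18, 1.80 and 2.08 against 2.57, 3.39 and 2.48 CPM (0.48, SE 0.18, adjusted p = 0.182). Rps15a read 56.2, 55.4 and 57.0 against 59.7, 71.7 and 63.0 CPM (0.21, SE 0.09, adjusted p = 0.222). The groups did not overlap for these 3, and the saline libraries lay close together. Rpl41, the smallest ribosomal protein, read 98.2, 93.0 and 98.5 against 102, 144 and 111 CPM (0.30, SE 0.13, adjusted p = 0.227). Rps16 read 6.63, 6.10 and 6.83 against 7.15, 9.77 and 7.77 CPM (0.34, SE 0.15, adjusted p = 0.228). Rpl37a, at 19.5, 19.2 and 21.3 against 20.6, 25.7 and 25 CPM (0.25, SE 0.10, adjusted p = 0.211), overlapped in 1 library. Large-subunit members had a median of 0.15 (45 tested) and small-subunit members of 0.19 (30 tested, all 30 above 0).

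Summed shares were taken of all counts in genes, without the scaling used for CPM. The order of libraries and groups may differ on the CPM scale, which was not used for this sum. Summed over all members, ribosomal protein genes took 0.454, 0.442 and 0.475% of counts in saline and 0.510, 0.664 and 0.521% in AAV-GFP. The difference of 0.108 percentage points had a two-sided exact permutation p of 0.1 (0.3 adjusted over the 3 comparisons), and 0.1 is the smallest p that 3 against 3 libraries allow. Their annotated pseudogenes also took a larger share in AAV-GFP, at 0.133 to 0.146% in saline and 0.163, 0.229 and 0.160% in AAV-GFP. In AAV-GFP-MBNL1∆ the members took 0.475, 0.528 and 0.450%, which overlapped with saline (difference 0.0273, exact permutation p = 0.5) and with AAV-GFP (−0.0808, exact permutation p = 0.3, 0.45 adjusted). Without AAV-GFP 2 the difference between AAV-GFP and saline was 0.0586 percentage points.

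**Figure D3:**
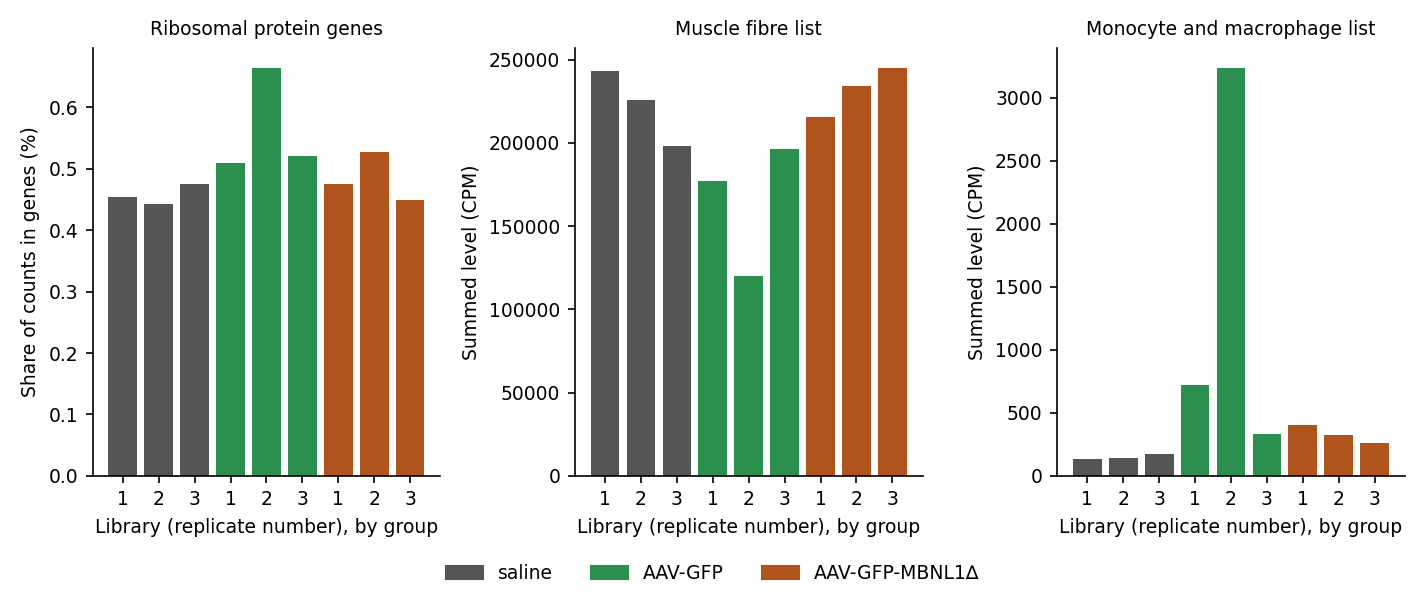
Share of counts in all ribosomal protein genes (%), summed level of 20 muscle fibre genes (CPM) and of 16 monocyte and macrophage genes (CPM), 1 bar per library. AAV-GFP 2 has the highest ribosomal share (0.664%), the highest macrophage sum (3237 CPM) and the lowest fibre sum (120177 CPM). The share is of unscaled counts in genes and the sums are scaled CPM, so the order of libraries may differ for a ribosomal sum in CPM.

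AAV-GFP-MBNL1∆ against saline gave 1 ribosomal protein gene that rose, Rps27l, and none that fell. Calls were made for 9.37% of all genes (4.76% higher and 4.6% lower), and 1 of 75 members is 1.33%. Rps27l read 38.3, 32.9 and 34.5 CPM in saline and 46.6, 49.5 and 44.1 in AAV-GFP-MBNL1∆, so that the groups did not overlap. Its means were 35.2 ± 2.76 and 46.7 ± 2.72 CPM (SD, n = 3), and it rose by 0.41 on the log2 scale (SE 0.09, adjusted p = 0.0243). In AAV-GFP it read 33.6, 38.4 and 37.3 CPM, within 1 CPM of the saline range. Only 12% of its 75-base windows are copied elsewhere. The call depended on the replication: it ended without saline 2 (adjusted p = 0.106) or 3 (0.0847) and without AAV-GFP-MBNL1∆ 1 (0.0716), 2 (0.0783) or 3 (0.059), and with upper quartile scaling its adjusted p was 0.05, not under it. The call also ended with the replicate number as a block in the fit. Immune markers and sex differed between the same groups: the summed level of 14 B and plasma cell genes, 2 of them at 0 counts throughout, was 94.8 to 166 CPM in saline, 199 to 1112 in AAV-GFP and 813 to 962 in AAV-GFP-MBNL1∆, and their part in the result was not tested.

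Its parent Rps27, a zinc-binding protein of the small subunit named here after its values were seen, read 1.7, 2.3 and 1.89 CPM in saline and 2.69, 2.56 and 2.26 in AAV-GFP-MBNL1∆ (0.35, adjusted p = 0.267). With 98.5% of its windows copied, most of its reads cannot be placed. Rps27rt, an expressed retrogene of Rps27 that the name rule leaves out, rose from 61.1 ± 1.71 to 79.9 ± 9.34 CPM (0.39, SE 0.10, adjusted p = 0.042). That call ended without any 1 of the saline libraries, AAV-GFP 1 or 3 or AAV-GFP-MBNL1∆ 1 or 2 (adjusted p up to 0.147), and with upper quartile scaling or no expression filter. The replicate block ended it as well. Rpl22l1, the paralog of Rpl22 and also outside the rule, read 13.9, 14.2 and 14.2 CPM in saline, 13.0, 15 and 15.1 in AAV-GFP and 19.1, 24.3 and 21.3 in AAV-GFP-MBNL1∆. It rose by 0.61 against saline (SE 0.10, adjusted p = 0.010; up to 0.051 without saline 1 or 2, where the call ended) and by 0.59 against AAV-GFP (SE 0.10, adjusted p = 0.0092), which held with any 1 library left out. Of the 8 measured paralogs and relatives outside the rule, 2 rose and 0 fell against saline (all genes 4.76% and 4.6%).

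**Figure D4:**
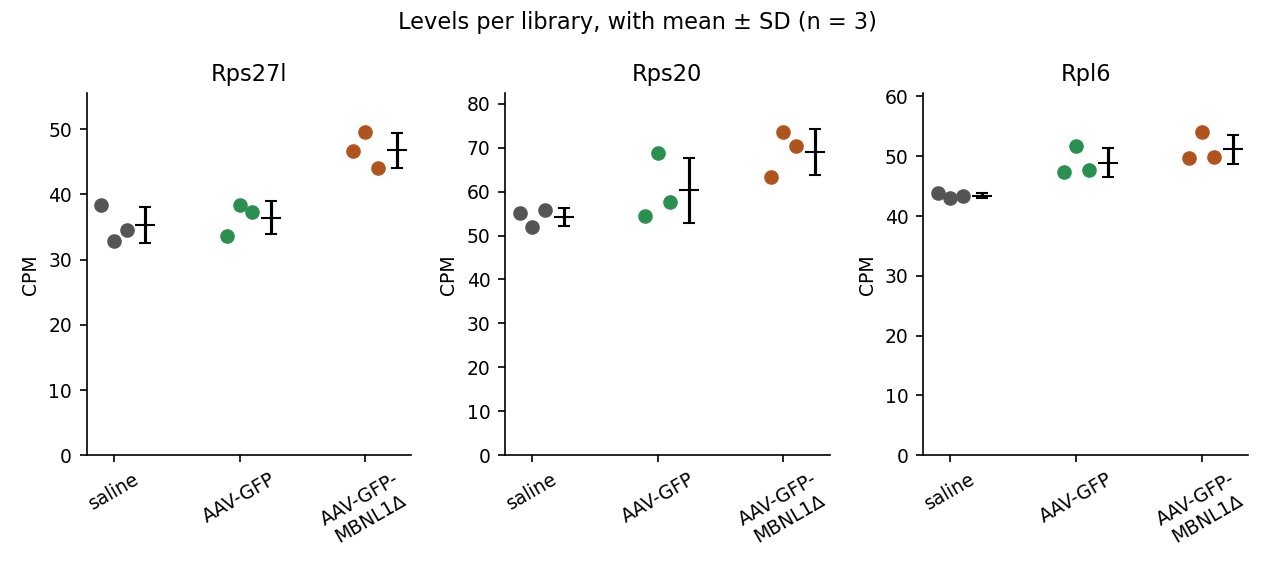
CPM per library for Rps27l, Rps20 and Rpl6, with mean ± SD (n = 3) beside the points. The AAV-GFP-MBNL1∆ libraries of Rps27l (44.1 to 49.5 CPM) lie above all others, while those of Rps20 and Rpl6 overlap with AAV-GFP.

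The other members differed little between the groups. Of 75, 59 had a log2 fold change above 0 (78.7%; all genes 52.0%), with a median of 0.11 (all genes 0.02) and a range from −0.35 (Rpl38 and Rps18) to 0.43 (Rpl13a). Rpl13a shares 88.6% of its span with other genes on its own strand. The groups did not overlap for 29 members that were higher (38.7%; all genes 22.7%) and for 2 that were lower, Rpl38 and Rps18 (2.67%; all genes 20%). Per library the median stood at 0.04, 0.24 and 0.05 in AAV-GFP-MBNL1∆ 1, 2 and 3, and replicate 2 was the highest of the 9 libraries for 30 members. Without it, 48 members were above 0 and the median was 0.04, with all genes at 51.9% and 0.02.

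Behind Rps27l, the 9 members with the smallest p-values all stood higher without passing. Rps20, of the head of the small subunit, read 55.1, 52.0 and 55.8 CPM in saline and 63.3, 73.5 and 70.3 in AAV-GFP-MBNL1∆ (0.35, SE 0.10, adjusted p = 0.068). Rpl6 read 49.7, 54.0 and 49.8 CPM in AAV-GFP-MBNL1∆, all above its saline range of 43.0 to 43.8 (0.24, SE 0.07, adjusted p = 0.0653). Rpl7a, with the longest pyrimidine run shown above, read 39.5, 40.2 and 39.1 in saline, 41.6, 42.7 and 42.6 in AAV-GFP and 45.4, 45.9 and 43.4 in AAV-GFP-MBNL1∆ (0.18, SE 0.06, adjusted p = 0.0945). In Rpl7a no 2 of the 3 groups overlapped.

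In Rps15a, AAV-GFP-MBNL1∆ read 65.5, 72.8 and 63.9 CPM (0.26, SE 0.09, adjusted p = 0.102). Rps26, near the exit of the mRNA channel, read 71.4, 69.0 and 68.5 in saline, 76.8, 88.9 and 77.7 in AAV-GFP and 82.8, 102 and 77.1 in AAV-GFP-MBNL1∆ (0.33, SE 0.11, adjusted p = 0.109). Its AAV-GFP-MBNL1∆ and AAV-GFP libraries overlapped. Rps14, lost in the 5q- syndrome of human bone marrow, read 121, 113 and 123 against 134, 159 and 142 CPM (0.28, SE 0.11, adjusted p = 0.137). Rps9 read 178, 210 and 180 CPM (0.31, SE 0.13, adjusted p = 0.169), a level like that of AAV-GFP. Rpl28, which bacteria lack, read 7.54, 7.65 and 8.0 against 9.23, 10.1 and 8.39 CPM (0.26, SE 0.10, adjusted p = 0.149). Rpl8, next to the catalytic centre, read 239, 230 and 251 against 275, 295 and 276 CPM (0.23, SE 0.09, adjusted p = 0.151). When only the saline and AAV-GFP-MBNL1∆ libraries were fitted, 6 members passed, and all of them were higher. The share of all genes that passed in that fit is not given here.

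AAV-GFP-MBNL1∆ against AAV-GFP compares both vectors. Again Rps27l was the member called, 1 of 75 (1.33%) where 21.1% of all genes were called (10.8% higher and 10.3% lower), and it rose by 0.36 (SE 0.09, adjusted p = 0.0255). This call ended without AAV-GFP 1 (0.0714), without AAV-GFP-MBNL1∆ 1 (0.066), 2 (0.0729) or 3 (0.0638), and with only these groups fitted (0.0605). The replicate block ended it too. The median member stood at −0.02 (all genes −0.06), with 34 of 75 above 0 (45.3%; all genes 45.1%). Leaving out 1 library moved this count in either direction. It was 22 without AAV-GFP 1 (all genes 44.7%) and 21 without AAV-GFP-MBNL1∆ 2 (all genes 44.6%). It was 45 without AAV-GFP 2 (all genes 47.2%) and 40 without AAV-GFP-MBNL1∆ 3 (all genes 44.2%). Without AAV-GFP 3 it was 28, without AAV-GFP-MBNL1∆ 1 it was 37, and without any 1 saline library 35. Both comparisons with AAV-GFP-MBNL1∆ use the same 3 libraries of that group, so the second call of Rps27l is not independent of the first. In the same way both comparisons with AAV-GFP share its libraries.

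Non-overlapping groups were fewer here than among all genes. They were higher in AAV-GFP-MBNL1∆ for 4 members, Rpl3l, Rpl7a, Rpl8 and Rps27l (5.33%; all genes 19.2%), and lower for 9 (12%; all genes 19.2%). Without AAV-GFP 2 they were higher for 14 (18.7%; all genes 23.8%) and lower for 9 (all genes 25.2%). Several of the lower ones are among the members with the smallest p-values. Rpl17 read 1.86, 2.20 and 1.71 CPM in AAV-GFP-MBNL1∆, against 2.48 to 3.39 in AAV-GFP (−0.55, SE 0.18, adjusted p = 0.0572). Rps18, of the head of the small subunit, read 4.18, 5.61 and 3.98 in AAV-GFP and 3.47, 3.42 and 3.03 in AAV-GFP-MBNL1∆ (−0.48, SE 0.17, adjusted p = 0.0692). Rps29, a small zinc-binding protein, read 4.30, 5.65 and 4.58 against 3.37, 4.18 and 3.45 CPM (−0.40, SE 0.16, adjusted p = 0.0878). For all 3 the AAV-GFP-MBNL1∆ libraries lay below the AAV-GFP libraries, and for Rpl17 and Rps29 they overlapped with saline.

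Rpl29 read 0.489, 0.648 and 0.598 CPM in AAV-GFP and 0.331, 0.418 and 0.434 in AAV-GFP-MBNL1∆ (−0.55, SE 0.23, adjusted p = 0.104). Rpl12, at the base of the stalk that binds elongation factors, read 6.17, 9.11 and 6.20 against 5.14, 5.93 and 5.08 CPM (−0.41, SE 0.17, adjusted p = 0.104). Rps27a, which is made as a fusion with ubiquitin, read 2.34, 3.95 and 3.28 against 2.21, 2.69 and 1.84 CPM (−0.51, SE 0.22, adjusted p = 0.116), with overlap. Rpl15 ran the other way, with 32.4, 23.5 and 36.0 CPM in AAV-GFP, 35.8, 40.6 and 39.4 in AAV-GFP-MBNL1∆ and 38.7, 36.7 and 33.1 in saline (0.33, SE 0.15, adjusted p = 0.122). Its lowest library was AAV-GFP 2, in which most members were highest.

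Rpl3l and Rpl3 are the paralogs by which muscle ribosomes differ from those of other tissues. Rpl3l (chr17:24727820-24736143) read 381, 367 and 353 CPM in saline, 306, 196 and 354 in AAV-GFP and 362, 429 and 412 in AAV-GFP-MBNL1∆. Rpl3 (chr15:80077791-80091868) read 2.48, 2.82 and 3.32, then 3.50, 6.68 and 3.25, then 2.87, 2.75 and 2.98 CPM. In AAV-GFP 2, Rpl3l was at its lowest and Rpl3 at its highest. The log2 fold changes of Rpl3l were −0.36 for AAV-GFP against saline (SE 0.20, adjusted p = 0.288), 0.13 for AAV-GFP-MBNL1∆ against saline (SE 0.20, adjusted p = 0.729) and 0.49 between the vectors (SE 0.20, adjusted p = 0.0962). Those of Rpl3 were 0.64 (SE 0.27, adjusted p = 0.208), 0.00 to 2 decimals (SE 0.27, adjusted p = 0.997) and −0.65 (SE 0.27, adjusted p = 0.104). None passed the test.

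Per library, Rpl3l had 153, 130 and 107 counts for each count of Rpl3 in saline, 87.4, 29.4 and 109 in AAV-GFP and 126, 156 and 138 in AAV-GFP-MBNL1∆. The mean log2 ratio was 7.01 ± 0.263 in saline, 6.03 ± 1.01 in AAV-GFP and 7.13 ± 0.154 in AAV-GFP-MBNL1∆ (SD, n = 3). It was 0.977 lower in AAV-GFP than in saline (log2 difference −0.977, exact permutation p = 0.2, 0.3 adjusted over 3). The difference shrank to −0.399 without AAV-GFP 2. Between the vectors it was 1.09, with no overlap (exact permutation p = 0.1, the smallest possible; 0.3 adjusted), and 0.517 without AAV-GFP 2. Between AAV-GFP-MBNL1∆ and saline it was 0.118 (exact permutation p = 0.6).

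The size of this ratio is not that of the proteins' mRNAs. Rpl3l has 0% of its windows copied and no annotated pseudogene, while 83.2% of the windows of Rpl3 are copied and its 2 pseudogenes held 26220 counts against 2073 in Rpl3. Per kilobase of exon, Rpl3l was at 119 to 261 CPM and Rpl3 at 0.782 to 2.1. With the pseudogenes added to Rpl3, the ratio was 12.1, 11.9 and 9.48 in saline, 6.16, 1.89 and 8.96 in AAV-GFP and 7.9, 11.0 and 10.7 in AAV-GFP-MBNL1∆. On this sum AAV-GFP no longer overlapped with saline (log2 difference −1.24, exact permutation p = 0.1), and AAV-GFP-MBNL1∆ stood slightly below saline (−0.187, exact permutation p = 0.5). Between the vectors the log2 difference was 1.05, and here the groups overlapped (exact permutation p = 0.2). The order of the AAV-GFP libraries was the same in the muscle fibre list, at 177374, 120177 and 196471 CPM, and the reverse in T-cell genes, at 61.5, 166 and 13.5 CPM. The part of these cells in the ratio was not tested.

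**Figure D5:**
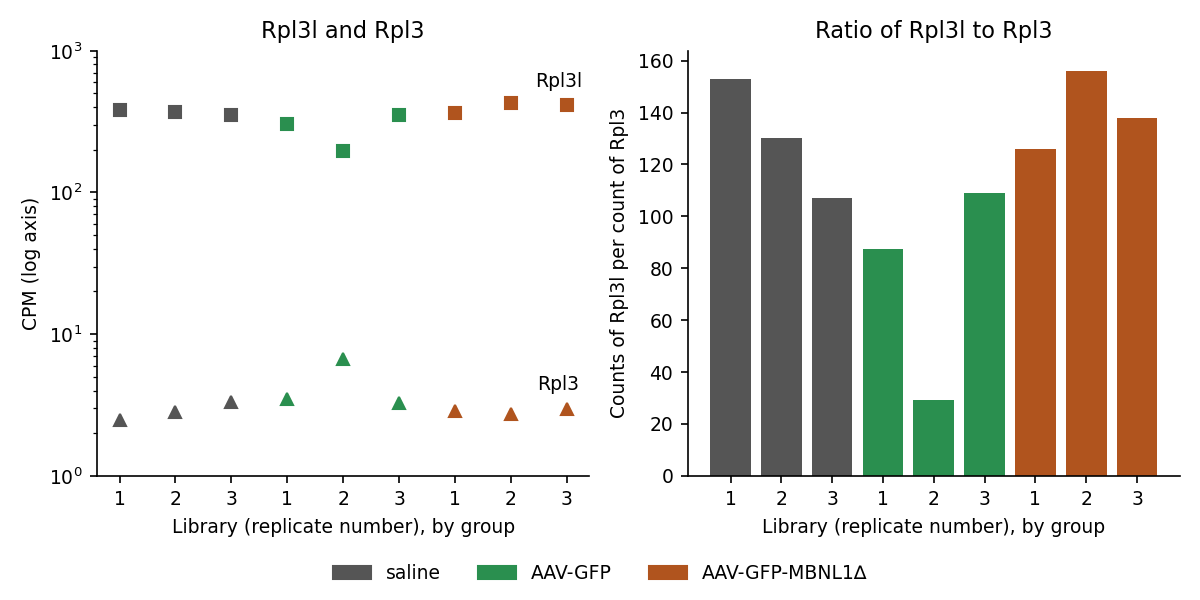
Left, CPM of Rpl3l and Rpl3 in each library (log axis). Right, counts of Rpl3l per count of Rpl3, from 29.4 in AAV-GFP 2 to 156 in AAV-GFP-MBNL1∆ 2.

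For the 3 proteins of the P stalk, the arm that recruits elongation factors, all groups overlapped. Rplp0, among the 5 members with the highest mean, read 340, 323 and 345 CPM in saline, 318, 339 and 361 in AAV-GFP and 338, 341 and 352 in AAV-GFP-MBNL1∆. Rplp1 ranged from 75 to 95.4 CPM over the 9 libraries and Rplp2 from 40.4 to 48.7. The mean of Rplp2 was 41.6 ± 1.98 CPM in saline and 45.9 ± 2.57 in AAV-GFP-MBNL1∆, a gap above either SD. Rpl4, which lines the exit tunnel, had the highest count of all members, at 522, 520 and 499, then 503, 512 and 537, then 528, 593 and 525 CPM. Rpl8, described above, read 242, 265 and 267 CPM in AAV-GFP. Rps3, at the mRNA entry, read 198, 183 and 200, then 198, 221 and 209, then 195, 213 and 191 CPM. For Rplp0 and Rps3 all groups overlapped, and Rpl4 was above saline in AAV-GFP-MBNL1∆ in every library, by 3 CPM at the least.

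The 4 X-linked members are given one by one because Xist differed between the groups. Rps4x read 139, 138 and 144 CPM in saline, 148, 189 and 161 in AAV-GFP (0.24, SE 0.11, adjusted p = 0.226) and 151, 166 and 149 in AAV-GFP-MBNL1∆. Rpl10, which joins the large subunit last, read 14.2, 14.3 and 14.1, then 15.6, 22.2 and 14.9, then 14.2, 14.7 and 13.6 CPM. Rpl39 read 25.3, 24.5 and 27.0, then 25.4, 36.8 and 28.3, then 24.8, 28.6 and 24.0 CPM. Rpl36a read 3.25, 3.26 and 3.07, then 3.04, 3.50 and 2.63, then 3.26, 3.36 and 2.82 CPM. In Rpl10, Rpl39 and Rpl36a the AAV-GFP-MBNL1∆ libraries overlapped with saline. The germ-cell paralogs were at or near 0: Rpl10l had 0 counts in all libraries and Rpl39l 31 counts in all, at 0.015 to 0.125 CPM, although 0.316% and 0% of their windows are copied. Rpl10l was therefore not detectable at this depth. Of the 80 members, 77 had a count and 75 were tested. Rpl10l, Rpl13, Rpl24, Rps10 and Rpl39l were not.

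The machinery around the ribosome was read from lists chosen for their roles. For these lists, here and below, the shares of all genes are those of the main fit. Counts with a library left out show only how far the calls moved, as the share of all genes called in those refits is not given. In AAV-GFP against saline 0 members of any of these lists passed with edgeR on all libraries. Without AAV-GFP 3, 3 of the other TOP mRNAs, 2 mTORC1 genes and 1 gene each of elongation, initiation and assembly were higher, and 1 gene each of mTORC1 and initiation was lower. By limma-voom with quality weights, 10 mTORC1, 8 initiation, 7 mitochondrial ribosomal, 6 polymerase I, 5 assembly, 2 elongation and 2 TOP genes were lower and 0 to 3 of each list higher. The shares of all genes called under these settings are not given here. Against saline, AAV-GFP-MBNL1∆ had 2 of 14 elongation genes that rose and 0 that fell, where 882 and 852 of all 18514 genes did. Eef2k, the kinase that inhibits elongation factor 2, rose from 80.5 ± 12 to 123 ± 12.3 CPM (0.62, SE 0.13, adjusted p = 0.0235), with the call lost without any 1 saline library or AAV-GFP-MBNL1∆ 1 or 3 (adjusted p up to 0.0948). Against AAV-GFP (61.9 ± 5.42 CPM) it rose by 1.0 (SE 0.13, adjusted p = 0.00314), and this held with each library left out. Eef1g, a subunit of the factor that recharges elongation factor 1A, rose from 142 ± 4.64 to 192 ± 15.9 CPM (adjusted p = 0.0269). Its call ended without any 1 saline or AAV-GFP-MBNL1∆ library (adjusted p up to 0.114), with upper quartile scaling and with the replicate block. Eef1a2, the muscle and neuronal form of elongation factor 1A, was at 1342 ± 141 CPM in saline, 1195 ± 199 in AAV-GFP and 2021 ± 144 in AAV-GFP-MBNL1∆. It rose between the vectors (0.76, SE 0.16, adjusted p = 0.0168; 0.0767 at most without AAV-GFP-MBNL1∆ 2 or 3, where the call ended, as it did with only these groups fitted) and stood at adjusted p = 0.0537 against saline. The elongation counts became 0 without any 1 saline library or AAV-GFP-MBNL1∆ 1 or 3, 1 without AAV-GFP-MBNL1∆ 2, and 6 higher and 1 lower without AAV-GFP 2.

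Of 38 initiation genes, 3 rose and 1 fell against saline and 10 rose and 2 fell against AAV-GFP. Of all genes 4.76% rose and 4.6% fell in the first comparison, and 10.8% and 10.3% in the second. Eif2b2, a subunit of the factor that recycles eIF2, rose from 29.0 ± 0.721 to 45.9 ± 1.65 CPM (0.66, SE 0.07, adjusted p = 0.00154). Eif3f, of the scaffold eIF3, rose from 101 ± 6.54 to 153 ± 3.52 CPM (0.60, SE 0.08, adjusted p = 0.005). The X-linked Eif2s3x, a subunit of eIF2, fell from 23.9 ± 1.74 to 16.6 ± 0.654 CPM (−0.53, SE 0.08, adjusted p = 0.00658), in libraries where Xist also differs. These 3 calls held in both comparisons with each library left out. Eif4ebp2, which blocks the cap-binding factor until mTORC1 phosphorylates it, rose from 286 ± 23.0 to 502 ± 79.5 CPM (0.81, SE 0.16, adjusted p = 0.0169). That call ended without any 1 saline library or AAV-GFP-MBNL1∆ 1 or 3 (adjusted p up to 0.0757). The number of initiation genes that rose against saline was 8 without AAV-GFP 2 and 2 to 4 without any other library. Against AAV-GFP it was 3 without AAV-GFP 1 or AAV-GFP-MBNL1∆ 3, 5 or 6 without any 1 saline library or AAV-GFP-MBNL1∆ 1 or 2, and 10 and 11 without AAV-GFP 2 and 3.

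Other mRNAs with a TOP motif, 20 tested, gave 2 that rose against saline, Eif3f and Eef1g, which also stand in the lists above, and 0 that fell. The shares of all genes were 4.76% and 4.6% there, and 10.8% and 10.3% against AAV-GFP. Pabpc1, the poly(A)-binding protein, read 117 ± 8.64 CPM in saline, 181 ± 72.2 in AAV-GFP and 200 ± 8.2 in AAV-GFP-MBNL1∆ (adjusted p = 0.081 against saline). The median of these mRNAs was −0.01, 0.10 and 0.11 in AAV-GFP against saline, AAV-GFP-MBNL1∆ against saline and between the vectors, beside 0.17, 0.11 and −0.02 for the ribosomal protein genes. Against AAV-GFP 6 rose and 2 fell, among the latter Hnrnpa1, a splicing factor, which fell by 0.30 (SE 0.08, adjusted p = 0.0392; up to 0.145 with 1 library left out, where only leaving out AAV-GFP 3 or AAV-GFP-MBNL1∆ 2 kept the call, which upper quartile scaling, no filter and fitting only these groups also ended). Those counts ranged from 1 that rose without AAV-GFP-MBNL1∆ 3 to 7 without AAV-GFP 2.

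Few genes that make and assemble the ribosome passed. Among all genes, 4.76% rose and 4.6% fell against saline, and 10.8% rose and 10.3% fell against AAV-GFP. Of 20 genes of RNA polymerase I and its factors, 0 rose and 1 fell against saline: Ttf1, the termination factor of ribosomal RNA transcription, went from 11.2 ± 0.699 to 8.49 ± 0.684 CPM (adjusted p = 0.034, kept only without AAV-GFP 2 or 3 among the libraries left out in turn, and up to 0.119; also lost with no expression filter). Against AAV-GFP Ttf1 and Taf1d fell and 0 rose, and both calls ended without AAV-GFP-MBNL1∆ 3 and with only these groups fitted. Of 50 assembly factors 1 rose, Bysl, which matures the small subunit, from 23.3 ± 0.543 to 30.6 ± 1.23 CPM (0.39, SE 0.07, adjusted p = 0.00926). It ended without saline 1 or AAV-GFP-MBNL1∆ 3 (adjusted p up to 0.0533) and held against AAV-GFP with each library left out (adjusted p = 0.00372). Against AAV-GFP 2 assembly factors rose and 2 fell, and without AAV-GFP 3 these were 8 and 5.

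Of 33 genes of mTORC1 and S6 kinase signalling, 1 rose and 3 fell against saline. All genes gave 4.76% and 4.6% there, and 10.8% and 10.3% against AAV-GFP. Mycn, a transcription factor that drives ribosome genes, fell from 2.29 ± 0.472 to 0.551 ± 0.128 CPM (−2.05, SE 0.26, adjusted p = 0.00295). Sesn1, which restrains mTORC1 when leucine is short, fell from 46.6 ± 9.03 to 21.7 ± 1.35 CPM (−1.10, SE 0.16, adjusted p = 0.00593). Both calls held with each library left out. Its relative Sesn3 fell from 26.4 ± 1.43 to 20 ± 2.12 CPM (adjusted p = 0.0287; up to 0.102, with 6 of 9 left-out libraries ending the call). Ddit4, a stress-induced inhibitor of mTORC1, rose from 7.18 ± 2.50 to 16.9 ± 5.42 CPM (1.24, SE 0.29, adjusted p = 0.0327; up to 0.117, with 5 of 9 left-out libraries ending it). The members that moved thus include 3 inhibitors of mTORC1, 2 of them lower and 1 higher. The number that fell against saline was 5 without AAV-GFP 2 and 2 to 4 without the other libraries. Against AAV-GFP 5 rose and 4 fell, and 0 rose without AAV-GFP-MBNL1∆ 3.

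The ribosomal proteins of mitochondria, a separate set of nuclear genes, were read for contrast. Of 75 tested, 7 rose and 0 fell against saline, and 29 rose and 0 fell against AAV-GFP, where 4.76% of all genes rose and 4.6% fell in the first and 10.8% and 10.3% in the second comparison, with medians of 0.15 and 0.25 (all genes 0.02 and −0.06). In AAV-GFP against saline their median was −0.11 and 0 passed. Mrps34 rose from 29.0 ± 2.77 to 43.1 ± 5.39 CPM (0.57, SE 0.11, adjusted p = 0.0135; up to 0.0684 without saline 1 or 2, where the call ended). Mrpl43 rose from 25.7 ± 0.370 to 33.2 ± 2.20 CPM (0.37, SE 0.07, adjusted p = 0.0156; up to 0.0732, with the call lost without any 1 saline library or AAV-GFP-MBNL1∆ 3 and with upper quartile scaling). Their summed level was 2399 to 2476 CPM in saline, 2270, 1998 and 2476 in AAV-GFP and 2536, 3000 and 2716 in AAV-GFP-MBNL1∆. The lowest mitochondrial sum was that of AAV-GFP 2. It is in scaled CPM and the cytosolic share above is of unscaled counts, so the sets are not compared on these values. The counts changed with the library left out, which also leaves fewer replicates. The shares of all genes called in those refits are not given here. Against saline, 0 rose without saline 1 or 2, 1 without saline 3 and 12 without AAV-GFP 2. Against AAV-GFP, 5 rose without AAV-GFP-MBNL1∆ 3, 8 without AAV-GFP 1 and 35 without AAV-GFP 3.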

How the data were processed

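The values are counts of reads per gene, deposited as 9 tables, 1 a library. DNase-treated total RNA (250 ng) was made into mRNA libraries, per the labels' protocols. Per the submitters' processing notes, the tools were cutadapt 2.10, STAR 2.7.5a, HTSeq 0.12.4 and DESeq2 1.30.0, with mm10; annotation, strand setting and read length: not given in the sources used here. Rows that name no gene (16.84 to 18.27% of reads) were left out. Symbols came from GENCODE M21 (GRCm38): 55141 identifiers matched and 260 did not.

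A single fit over the 9 libraries used edgeR 4.0.16, run in R 4.3.3 (TMM, robust quasi-likelihood F test, its expression filter, 18514 genes tested). It left 6 residual degrees of freedom, with a biological coefficient of variation of 0.232. Adjustment was by the Benjamini-Hochberg method over all genes within each of 3 comparisons, with 0.05 as threshold; adjusted p-values are edgeR's except where limma or DESeq2 is named. The SE of a fold change was derived from the test, as the size of the log2 fold change divided by the square root of its F statistic. CPM use TMM-scaled library sizes, while shares are of the unscaled counts in genes. Group values are mean ± SD over 3 libraries, and depth covers counting error only. Ratios and shares, 1 per library, were compared with exact two-sided permutation tests. The scripts were tested on simulated data.

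Members and lists were chosen with earlier results of these data known. Fold changes are printed for the 10 members with the smallest p in each comparison and for Rpl3 and Rpl3l. CPM per library are added for X-linked members, paralogs and the 5 members with the highest mean, and of the other lists up to 4 genes by p against saline are named. The alternatives were other scalings, filters and tools (DESeq2 1.42.0, limma 3.58.1), 2 groups only, a replicate block, pseudogenes added and each library left out. Rpl13a, Rpl23a, Rpl38, Rps27, Rplp1 and Rplp2 were named after their values were seen, some of them with a fold change or a mean outside that rule, as were members listed because their groups did not overlap. The counts of members above 0 under each setting were added after the data were seen. Whether each library is 1 animal is not stated in the labels, and p-values then refer only to the spread among these libraries, which may be technical.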

Additional observations from a re-analysis of the deposited data

How the results depend on the processing

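With edgeR the number of ribosomal protein genes called in AAV-GFP against saline was 0 under all scalings and filters and with any 1 library left out (9 at an unadjusted p under 0.05), and 6 by limma-voom with quality weights (5 higher, 1 lower). For AAV-GFP-MBNL1∆ against saline the count of 1 became 0 with upper quartile scaling and with the replicate number as a block, 6 with DESeq2, 6 with only these groups fitted and 14 with quality weights, and it ranged from 0 to 5 with 1 library left out (5 without AAV-GFP 2). For AAV-GFP-MBNL1∆ against AAV-GFP it became 2 with a filter of 1 CPM in 3 libraries, 4 with DESeq2, 16 with quality weights (10 higher, 6 lower), 0 with only these groups fitted and 0 with the replicate block, and it ranged from 0 to 8 with 1 library left out (8 without AAV-GFP 3). In that comparison 21 to 45 members stood above 0 with 1 library left out. In the first comparison 51 members stood above 0 with quality weights and 62 with upper quartile scaling, against 71. The shares of all genes called under these settings are not given here. Without those shares, the counts cannot say whether a change is particular to ribosomal protein genes. The cause of the differing counts was not tested.

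The sign of Rpl3 in AAV-GFP-MBNL1∆ against saline, 0.00 to 2 decimals, turned positive with DESeq2 scaling, no filter, DESeq2 and limma-voom (0.00 each), the replicate block (0.01), quality weights (0.07) and pseudogenes added (0.31), and without saline 3 (0.11) or AAV-GFP-MBNL1∆ 2 (0.03), in a range from −0.1 to 0.11 with 1 library left out. The log2 ratio of Rpl3l to Rpl3 in that comparison was −0.187 with pseudogenes added. Of 692 refits of single genes, 626 kept direction and side of the threshold, 44 came to pass it, 13 no longer passed and 9, all of Rpl3, changed sign. The labels do not say whether replicate numbers pair the samples. Correlations of same-numbered libraries ran from −0.082 to 0.446, and those of libraries with different numbers from −0.435 to 0.278. Under the block Rps27l had adjusted p of 0.0514 against saline and 0.0501 against AAV-GFP. Depth limits the members with the fewest counts: Rpl29, with the lowest mean of those tested (0.475 CPM), had 22 to 52 counts per library.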
